A study of Mus musculus with 2 samples.

Results

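Solitary Tcf1 peaks were defined as peaks on chromosomes 1 to 19 with a WT pileup of 25 fragments or more and no other peak summit of the deposited list within 100 kb. They were 1148 of the 19528 autosomal peaks at that pileup, and the whole list held 22286 peaks. The remaining 18380 autosomal peaks of the same pileup, called other peaks here, served for comparison. The members were chosen by their WT pileup and by their spacing, so pileup, length, fold enrichment and the gap to the next summit are given as descriptions of them.

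The list came from Tcf1 ChIP-seq on naive CD8+ T cells (GFP+ TCRbeta+ CD62Lhi CD44lo-med CD8+) sorted from mouse spleen, with 1 library from WT and 1 from Tcf1-deficient cells. A rabbit antiserum raised against full-length Tcf1 was used in both. The genotype field gives wild type for the first and Tcf1-/-Lef1-/- for the second, the series' design names hCD2-Cre with Rosa26-lsl-GFP and floxed Tcf1 and Lef1 alleles, and the study's methods name Cd4-Cre+ Tcf7 fl/fl mice for the control, so whether the control cells lacked Lef1 cannot be settled from these sources. Per the study's methods the mice were young adults of both sexes. Once duplicates were removed, 36938606 of 46428124 fragments remained for WT and 27625250 of 36118114 for the Tcf1-deficient library. With 1 library per genotype there was no replicate check. Intervals below are 95% intervals for counting error over peaks of 1 list, which are not replicates, and no p-value was computed.

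Tcf1, encoded by Tcf7, is an HMG box factor of the Tcf/Lef family that bends DNA at a short AT-rich core, acts downstream of Wnt signalling and maintains the identity of naive CD8+ T cells. ChIP-seq peaks of such factors often lie in groups at enhancers around lineage genes. Promoters rich in CpG dinucleotides, in contrast, are open in most cell types. A peak far from any other can also lie in repeated DNA, where short reads cannot always be assigned to 1 place.

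The windows below run 100 bp to each side of the summit and are shown so that the strongest distal members and the Tcf/Lef core at lone promoters can be seen. They were picked for height or for the core and are not typical of the members, most of which lacked it. They are the 2 largest intron peaks by fold enrichment, the largest intergenic one, and 3 promoter peaks with the Tcf/Lef core. Coordinates are NCBIM37 (mm9), plus strand, and capitals mark the cores searched on either strand. Shown here are the Tcf/Lef core ATCAAAG, the core of Runx factors, an ETS core, GC boxes and part of the CTCF motif, whose letters are given with their shares further on.
Atp6v0a4 intron, chr6:38070747-38070947: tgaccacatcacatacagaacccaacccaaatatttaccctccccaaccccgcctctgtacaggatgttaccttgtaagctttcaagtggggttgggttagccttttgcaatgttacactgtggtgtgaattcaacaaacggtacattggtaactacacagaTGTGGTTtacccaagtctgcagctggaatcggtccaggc
Nebl intron, chr2:17593447-17593647: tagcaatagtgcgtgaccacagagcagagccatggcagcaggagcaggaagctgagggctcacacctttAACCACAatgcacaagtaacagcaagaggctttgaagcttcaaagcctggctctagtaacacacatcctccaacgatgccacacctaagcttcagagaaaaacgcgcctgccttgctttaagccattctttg
Intergenic, nearest start Rpl30-ps8, chr12:100322481-100322681: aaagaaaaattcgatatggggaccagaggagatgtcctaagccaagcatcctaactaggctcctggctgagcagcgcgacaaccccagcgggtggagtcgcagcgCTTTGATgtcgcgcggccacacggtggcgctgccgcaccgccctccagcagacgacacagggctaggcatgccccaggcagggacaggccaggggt
Gtf2b promoter, chr3:142427907-142428107: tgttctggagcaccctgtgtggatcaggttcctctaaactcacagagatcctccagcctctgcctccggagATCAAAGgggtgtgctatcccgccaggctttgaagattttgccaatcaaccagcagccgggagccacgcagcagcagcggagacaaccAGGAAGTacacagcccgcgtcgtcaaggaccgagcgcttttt
Sox17 promoter, chr1:4486448-4486648: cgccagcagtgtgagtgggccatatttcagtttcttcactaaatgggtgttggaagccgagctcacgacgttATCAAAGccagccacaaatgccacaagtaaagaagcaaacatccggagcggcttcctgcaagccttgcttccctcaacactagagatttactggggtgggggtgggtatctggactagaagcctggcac
Nkd1 promoter, chr8:91045078-91045278: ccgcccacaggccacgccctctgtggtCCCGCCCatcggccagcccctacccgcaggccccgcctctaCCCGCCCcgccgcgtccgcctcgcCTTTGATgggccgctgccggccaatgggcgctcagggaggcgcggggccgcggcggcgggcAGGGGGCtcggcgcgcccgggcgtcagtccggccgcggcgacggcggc

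The centre of the Tcf/Lef core lay 8 bp from the summit in the intergenic window near Rpl30-ps8, 26 bp at Gtf2b, 25 bp at Sox17 and 5 bp at Nkd1. In the Atp6v0a4 and Nebl windows the Runx core was 65 and 28 bp from the summit, and neither held the Tcf/Lef core. Every one of these 6 windows was unique or nearly so in the genome, with at most 1.75% of its 31-base words present more than once.

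The largest fold enrichment of a solitary peak was 60, in an intron of Atp6v0a4, a subunit of the proton pump that acidifies vesicles (chr6:38070433-38071146, 714 bp). The WT pileup was 384 fragments (exact Poisson interval 347 to 424) against a Tcf1-deficient control level of 5.42, the lowest value of the list and called its floor here. The control level is a local expected level, computed back from the fold enrichment and so on the scale of the WT pileup, and not a count of fragments. The nearest other summits were 249 kb to the left and 200.1 kb to the right, and the nearest annotated start site was that of a U6 snRNA, 2.46 kb away. An intron of Nebl, which encodes the actin-binding protein nebulette, followed with a pileup of 408 (369 to 449.6) against 7.35 and a fold enrichment of 49.0 (chr2:17593097-17593936). Both genes are best known outside the T lineage.

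Tcf7l2, another Tcf/Lef family member, held the next solitary peak in an intron 17.1 kb downstream of its start site. Its pileup was 312 (278 to 349) against the control floor, a fold enrichment of 48.8, and the nearest other summit was 123 kb away. Intron peaks also stood alone in Atxn10, with a pileup of 258 and a fold enrichment of 40.4, and in March10, a ubiquitin ligase gene, with a pileup of 238 and a fold enrichment of 37.2. Neither of the last pair held any of the 7 cores searched. The largest intergenic solitary peak by fold enrichment (chr12:100322306-100322925) had a pileup of 217 (189 to 248) and a fold enrichment of 34.0, 37.2 kb from the start of Rpl30-ps8. The annotation used counts Rpl30-ps8 as protein-coding despite its pseudogene symbol. Next came an intergenic peak on chromosome 18 at 81407423 to 81408259, with a pileup of 212 and a fold enrichment of 33.2, whose nearest protein-coding start, that of Sall3, was 225 kb away. Another intergenic one, on chromosome 17 at 78486200 to 78486768, had a pileup of 197, a fold enrichment of 30.8 and 2 Runx cores, and the next summit on one side was 2535 kb away. The control level stood at its floor at all of the peaks in this paragraph.

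At promoters, meaning within 1 kb of an annotated start site, the tallest solitary peak lay 183 bp upstream of Gtf2b, the general transcription factor TFIIB (chr3:142427654-142428385). It had a pileup of 292 (259 to 327) and a fold enrichment of 26.6, with the control at 10. Tes, which encodes the focal adhesion protein testin, had a pileup of 286 (254 to 321) at the control floor and a fold enrichment of 44.7 over 1754 bp (chr6:17014844-17016597). The nearest other summits to the Tes peak were 571 kb and 3388 kb away. Solitary promoter peaks at 2310035C23Rik and at Rev1, a polymerase that copies damaged DNA, had pileups of 208 and 206 and fold enrichments of 27.2 and 24.8.

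Further promoter members were picked after their values were seen, for genes with a known role in development or gene regulation. Sox17, an HMG box factor of endoderm, had a pileup of 87 (69.7 to 107) and a fold enrichment of 13.7, its summit 54 bp upstream of the start (chr1:4486300-4486819). Nkd1, a feedback inhibitor of Wnt signalling, had a pileup of 64 (49.3 to 81.7) and a fold enrichment of 10.1 (chr8:91045002-91045396). Rad21, a cohesin subunit, had 84, Maf 71, and the Notch target Hes1 56 fragments, with fold enrichments of 13.2, 11.2 and 8.88. The corepressor gene Tle1 had 78 fragments against a control level of 8.02 and no other summit within 789 kb. Lower pileups were found at Bambi, a decoy receptor of the TGF-beta family (29, fold enrichment 4.67), and at the histone deacetylase gene Hdac2 (28, fold enrichment 4.52), so at these the Poisson intervals, 19.4 to 41.6 and 18.6 to 40.5, reached below the pileup minimum.

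Across all 1148 solitary peaks the median pileup was 39 fragments (95% interval of the median 38 to 40, interquartile range 31 to 59), against 44 (44 to 45, interquartile range 32 to 71) for the other peaks. The highest was 3346 and 119 members reached 100 or more. Of these 119 tall members, 47 were intergenic, 36 lay in introns and 36 at promoters. Median fold enrichment was 5.90 (5.71 to 5.98) for solitary and 6.70 (6.70 to 6.86) for other peaks. Median length was 429 bp (414 to 450) against 481 bp (476 to 485). On the log2 scale the ratio of the medians, solitary over other, was -0.17 (-0.22 to -0.14) for pileup and -0.17 (-0.22 to -0.09) for length. Without multi-copy windows, defined further on, the ratio for length was -0.03 (-0.08 to 0.02), and with a pileup minimum of 50 the ratio for pileup was -0.07 (-0.16 to 0.04), so both intervals then took in 0.

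The medians of height and length differed less at promoters than elsewhere. Solitary promoter peaks had a median pileup of 41 (39 to 43) and a median length of 526 bp (503 to 548), against 42 (41 to 42) and 537 bp (530 to 544) for other promoter peaks. In introns the medians were 39 (37 to 42) against 46 (45 to 47) fragments and 360 bp (339 to 386) against 446 bp (440 to 453). Intergenic solitary peaks had 37 (35 to 39) against 46 (45 to 48) fragments and 355 bp (336 to 374) against 458 bp (449 to 467). The promoter intervals overlapped for both measures, and those of the intron and intergenic peaks did not. With multi-copy windows left out, distal peaks had medians of 42 (39 to 45) against 46 (45 to 47) fragments, intervals that meet, and of 392 bp (374 to 419) against 453 bp (447 to 458).

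**Figure D1:**
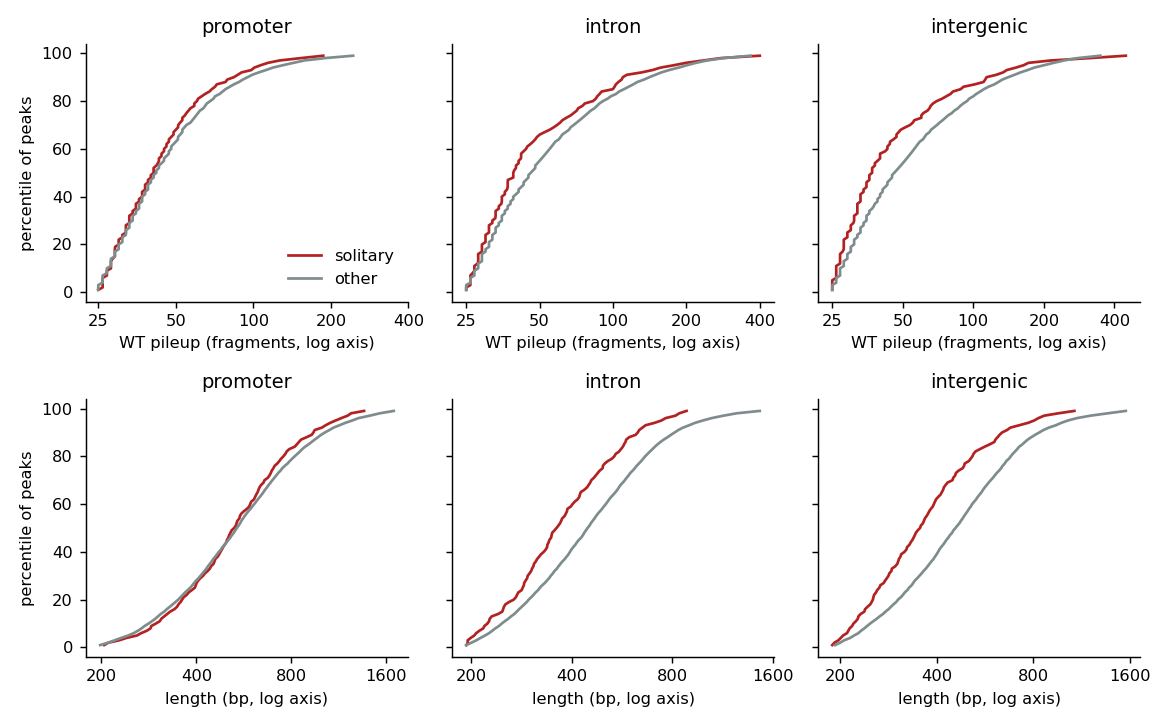
Percentiles of WT pileup in fragments (upper row) and of peak length in bp (lower row), both on log axes, for solitary peaks (red) and other autosomal peaks of pileup 25 or more (grey) by position of the summit. The median pileups are 41 and 42 fragments at promoters, 39 and 46 in introns and 37 and 46 between genes, and at promoters the curves part in their upper range, with 99th percentiles of 187 and 244 fragments.

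Lengths were also set side by side within ranges of pileup. Among peaks of 25 to 29 fragments the median length was 286 bp (274 to 302) for solitary and 280 bp (275 to 284) for other peaks, and at 40 to 59 fragments it was 493 bp (472 to 511) and 487 bp (482 to 494). Above that the solitary peaks were shorter, 546 bp (526 to 581) against 595 bp (588 to 605) at 60 to 99 fragments and 650 bp (612 to 721) against 702 bp (693 to 710) at 100 to 199, where only the intervals of the former range did not overlap. At 200 or more fragments the medians were 648 bp (369 to 818) and 809 bp (790 to 825), from 28 solitary peaks, with overlapping intervals. Solitary peaks made up 7.43% (6.59 to 8.37%) of the lowest of these ranges. Their share was 5.72% (5.11 to 6.40%) of the peaks with 40 to 59 fragments, and among those with 200 or more it was 3.89% (2.71 to 5.57%).

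Nearly every peak of this height passed the study's limits for high-confidence binding, p under 1e-05, q under 0.05 and a fold enrichment of 4 or more. They were passed by 1028 solitary peaks (89.5%, 87.6 to 91.2%) and 17727 other peaks (96.4%, 96.2 to 96.7%), against 96.0% of all autosomal peaks of pileup 25 or more. Fold enrichment and p are computed from the pileup that chose the members, so these shares, here and below, are given as descriptions. At the control floor a pileup of 25 passes the fold limit by arithmetic, so the 120 solitary peaks that failed were bound to have a control level above it. They comprised 80 intergenic, 23 intron and 17 promoter peaks, and 91 of them lay in windows called multi-copy, where over 50% of the 31-base words around the summit occurred more than once in the genome.

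Repeated sequence set the solitary peaks apart from the other peaks. Multi-copy windows made up 183 of the solitary peaks (15.9%, 13.9 to 18.2%) and 691 of the other peaks (3.76%, 3.49 to 4.04%), a difference of 12.2 percentage points (10.2 to 14.4). Read the other way, 20.9% (18.4 to 23.8%) of all multi-copy peaks were solitary, against 5.17% (4.86 to 5.50%) of the remaining peaks. Of the 183, 141 were intergenic, 33 lay in introns, 8 at promoters and 1 in an exon, so 40.1% of the solitary intergenic peaks were multi-copy but 1.44% of the solitary promoter peaks. The median word in a solitary multi-copy window occurred 118 times in the assembly (54 to 308), against 4 times (3 to 4) in the multi-copy windows of the other peaks. Over 1000 copies were counted in 56 of the 183 and in 26 of the 691.

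By their medians solitary multi-copy peaks were low and short, with a pileup of 32 (30 to 33) and a length of 288 bp (266 to 310). The other multi-copy peaks had medians of 47 (44 to 51) fragments and 407 bp (387 to 429). Of the 119 solitary peaks of pileup 100 or more, 17 were multi-copy (14.3%, 9.11 to 21.7%), near their 15.9% of all members. The Tcf1-deficient library was above its floor at 65.6% (58.4 to 72.1%) of the solitary multi-copy peaks and at 17.3% (15 to 19.8%) of the other solitary peaks, while among non-solitary peaks the shares were 42.7% (39.1 to 46.4%) and 15.8% (15.2 to 16.3%). High-confidence peaks were 50.3% (43.1 to 57.4%) of the solitary multi-copy peaks and 97% (95.7 to 97.9%) of the remaining solitary peaks. Among the non-solitary peaks the same shares were 72.9% (69.5 to 76.1%) and 97.4% (97.1 to 97.6%). Whether reads with several equal matches were kept for these libraries is not given in the sources used here, and the part of repeated sequence in these peaks was not tested.

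**Figure D2:**
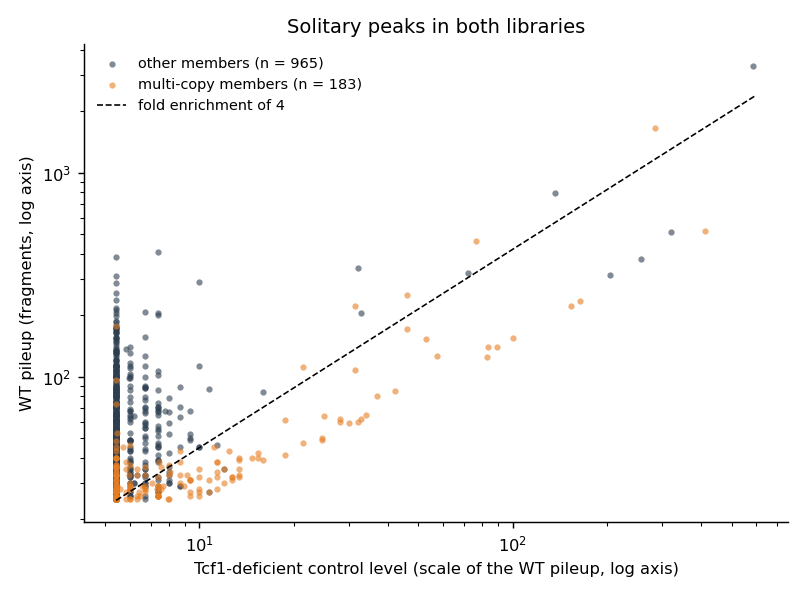
WT pileup in fragments against the Tcf1-deficient control level on the same scale, on log axes, for the 1148 solitary peaks, with the 183 in multi-copy windows in orange. Points pile up at the control floor of 5.42, and most of the points right of the dashed line, which marks a fold enrichment of 4, are multi-copy.

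Control levels above 50 were found at 17 solitary peaks, of which 14 were intergenic and 3 lay in introns, 11 were multi-copy and 5 were high-confidence. The tallest and longest solitary peak belonged to these, 5787 bp on chromosome 17 near AY036118, where 3346 WT fragments stood over a control of 585. Next in control level came a peak 3.20 kb from the start of Rps2-ps5, also counted as protein-coding, with a pileup of 519 against 412 and a fold enrichment of 1.26. Peaks in an intron of Mdga2 (511 against 320.2) and between genes near Pxmp3 (1647 against 284) and Kcnh5 (379 against 257) followed. The tallest multi-copy member in an intron, in Gphn, had 461 fragments against 76.2 over 261 bp.

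By position, 554 solitary peaks lay at promoters (48.3%, 45.4 to 51.1%), 352 between genes (30.7%, 28.1 to 33.4%), 233 in introns (20.3%, 18.1 to 22.7%) and 9 in exons (0.784%, 0.413 to 1.48%). The other peaks had 38.7% (38.0 to 39.4%) at promoters, 27.4% (26.8 to 28%) between genes, 31.4% (30.8 to 32.1%) in introns and 2.5% (2.29 to 2.74%) in exons. The promoter share was thus 9.59 percentage points higher (6.63 to 12.6) and the intron share differed by -11.1 points (-13.5 to -8.62), solitary minus other. Without multi-copy windows the promoter share rose to 56.6% against 39%, a difference of 17.6 points (14.4 to 20.8), and the intergenic difference changed direction, from 3.26 points higher (0.584 to 6.06) to 21.9% against 27.0%. With a distance of 200 kb in place of 100 kb the promoter difference was 3.81 points (-0.720 to 8.45), an interval that takes in 0, and with promoters of 2.5 kb to each side it was 4.27 points (1.29 to 7.25). Within ranges of pileup the intervals of the promoter share lay apart in 2 of 6, at 61.8% (56.0 to 67.2%) for solitary against 43.4% (41.9 to 44.8%) for other peaks of 40 to 59 fragments and at 48.8% (41.2 to 56.4%) against 36.9% (35.3 to 38.6%) for 60 to 99. In the other 4 ranges they overlapped, with solitary and other shares of 42.9% and 40% for 25 to 29 fragments and of 21.4% and 18.2% for 200 or more.

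**Figure D3:**
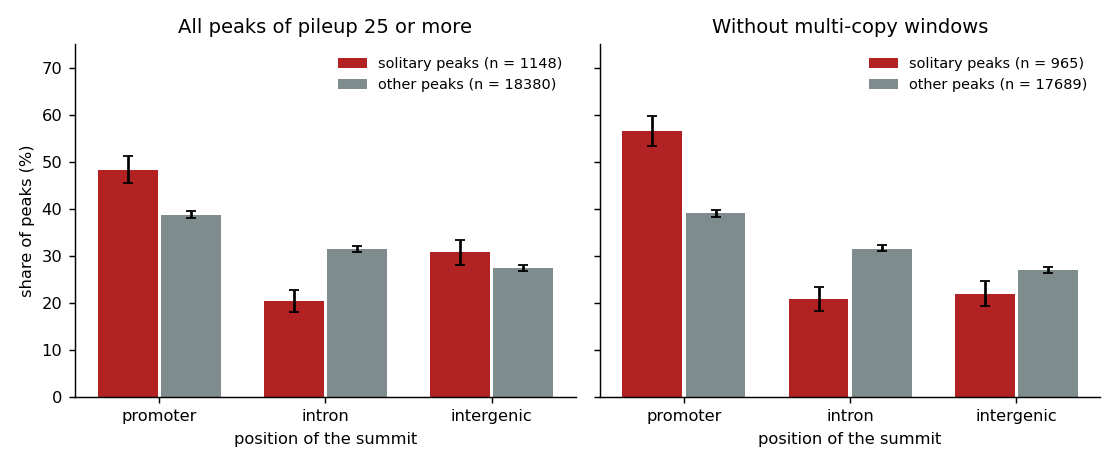
Share of peaks in percent with the summit at a promoter, in an intron or between genes, for solitary (red) and other (grey) autosomal peaks of pileup 25 or more, with 95% Wilson intervals. The promoter bar is higher for solitary peaks on both sides (48.3 against 38.7%, and 56.6 against 39% without multi-copy windows), while the intergenic bars change order between the left and the right side.

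Solitary promoter peaks sat close to CpG-rich start sites. The summit was within 100 bp of the start in 342 of 554 (61.7%, 57.6 to 65.7%), against 54.8% (53.7 to 56.0%) of other promoter peaks, and the median distance was 67.5 bp (57 to 78) against 84 bp (80 to 88). GC content of the window was 63.7% (62.7 to 64.7%) against 62.2% (61.7 to 62.2%), and the ratio of observed to expected CpG was 0.880 (0.857 to 0.905) against 0.808 (0.799 to 0.816). Protein-coding starts were the nearest at 520 of the 554 (93.9%, 91.5 to 95.6%) and at 91.6% (90.9 to 92.2%) of the others. Symbols were counted over all positions by the nearest start site only. Zfp genes had the nearest start at 19 solitary peaks (1.66%, 1.06 to 2.57%) against 1.45% (1.28 to 1.63%) of other peaks. The shares were 0.261% and 0.316% for Mrp, 0.348% and 0.158% for Nduf and 0.610% and 0.658% for ribosomal protein genes, from 3, 4 and 7 solitary peaks, and the intervals overlapped for each.

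The surroundings of solitary peaks held fewer genes. The spacing rule leaves out peaks with a further peak nearby, such as one at another gene's promoter, so the values here are given as descriptions. Within 100 kb of a solitary promoter peak the median number of protein-coding start sites was 2, its own included, against 4 for other promoter peaks. For solitary peaks between genes 56.8% (51.6 to 61.9%) had no protein-coding start within 100 kb, against 14.8% (13.9 to 15.8%) of other intergenic peaks, and in introns the shares were 50.6% (44.3 to 57.0%) and 11.1% (10.3 to 11.9%). Introns with a solitary peak belonged to long genes, with a median gene length of 234459 bp (194683 to 294885) against 90969 bp (88596 to 93200). Over all positions the median distance from the summit to the nearest start site was 2249.5 bp (674 to 4528) for solitary and 3614 bp (3368 to 3828) for other peaks. GC content of the surrounding 200 kb had a median of 42.2% (41.9 to 42.4%) against 45.1% (45.0 to 45.1%). Gaps in the assembly lay within 100 kb of 2.09% of solitary and 2.64% of other peaks, so gaps were not more frequent around solitary peaks.

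Along the range of spacing, the 1148 members were not of one kind. Of them 694 had the nearest summit at 100 to 200 kb, 292 at 200 to 500 kb and 162 beyond 500 kb, of which 50 lay beyond 1 Mb. Median pileup was 41 (39 to 43), 38 (36 to 40) and 36 (33 to 38) in these ranges, and median length 454, 417 and 352 bp. The multi-copy share was 9.22% (7.29 to 11.6%), 17.5% (13.5 to 22.2%) and 42.0% (34.6 to 49.7%), against 3.23 to 4.47% in the 5 ranges under 100 kb. Promoter shares were 51.7% (48.0 to 55.4%), 46.2% (40.6 to 52.0%) and 37.0% (30 to 44.7%). Among the other peaks, those 30 to 100 kb from the next summit had a promoter share of 51.6% (49.9 to 53.3%) and a median pileup of 42, so peaks on either side of the 100 kb limit were alike in these measures.

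**Figure D4:**
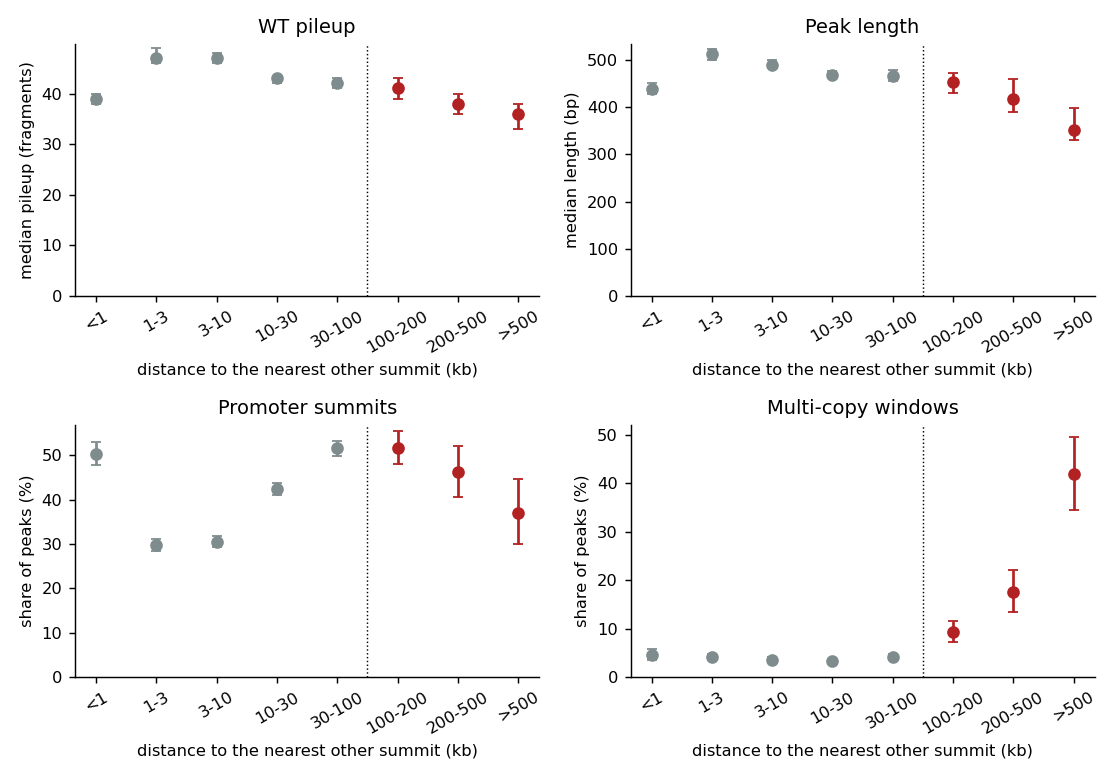
Median WT pileup (fragments), median length (bp), promoter share and multi-copy share (both in percent) of autosomal peaks of pileup 25 or more by distance to the nearest other summit in kb, with 95% intervals. Red points right of the dotted line are the solitary peaks, whose multi-copy share reaches 42.0% beyond 500 kb while it stays under 4.5% left of the line.

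The 5 most distant members had their nearest neighbour 2241 to 4573 kb away, and their pileups were 27 to 35 fragments with fold enrichments from 2.5 to 4.42. All 5 were intergenic, with control levels of 5.81 to 13.4, and 4 of them lay in multi-copy windows. The farthest, 9.20 kb upstream of the predicted gene Gm3029 (chr14:4025442-4025647), had every word of its window repeated, a pileup of 35 (24.4 to 48.7) and a control level of 13.4. The exception among the 5, near Gm3495 on chromosome 5, was unique in the assembly, with a pileup of 30 and both ETS cores.

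Just inside the limits of the rule, 36 members had a pileup of 25 and the closest gap was 100110 bp, with 130 members between 100 and 110 kb. Just outside, 43 isolated peaks had a pileup of 24, and the largest gap among the other peaks was 99843 bp, with 167 of them between 90 and 100 kb. For 12 members the deposited list held no further peak on one side up to the chromosome's end.

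Members were found on all 19 autosomes, 34 to 94 per chromosome. As a share of peaks they ranged from 3.46% (2.66 to 4.49%) on chromosome 11, which had 12.8 peaks of pileup 25 or more per Mb, to 10% (7.73 to 12.8%) on chromosome 18, which had 5.84 per Mb. The number of solitary peaks per Mb varied less, from 0.338 on chromosome 15 to 0.584 on chromosome 18.

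Over all positions the Tcf/Lef core was found within 100 bp of the summit in 112 solitary peaks (9.76%, 8.17 to 11.6%) and in 9.99% (9.56 to 10.4%) of other peaks, 9.98% of all. The windows 2 kb away held it in 4.09% and 3.27%, and the same letters read backwards were found at the summits in 2.61% and 2.40%. The shares parted by position. At promoters 17 of 554 solitary peaks (3.07%, 1.92 to 4.86%) held the core, against 5.11% (4.62 to 5.64%) of other promoter peaks, and the solitary share was not above that of their own flanks, 3.88%. Away from promoters and outside multi-copy windows, 74 of 419 solitary peaks held it (17.7%, 14.3 to 21.6%), against 13.2% (12.6 to 13.9%), a difference of 4.42 points (1 to 8.41), with flanks at 3.46% and 3.05%. Median distance of the core from the summit was 16 bp (11 to 24) and 17.5 bp (16 to 19) in these distal sets.

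Pileup with and without the core was set side by side in each set. Outside multi-copy windows the median pileup of solitary distal peaks was 41 (34 to 57) with the core and 42 (39 to 45) without it. The other distal peaks had 55 (53 to 58) with and 45 (44 to 46) without. The intervals overlapped for the solitary peaks and not for the others, and whether the sets differed in this was not tested. At promoters the medians were 59 (39 to 108, 17 peaks) with and 40 (38 to 42) without the core for solitary peaks, and 59 (54 to 69) and 41 (41 to 42) for the others. For the Runx core the medians were 42.5 (37 to 48) with and 42 (39 to 45) without it in solitary distal peaks, against 53 (51 to 54) and 45 (44 to 45) in the others.

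Among the other cores, all searched on both strands, Runx (TGTGGTT, 15.2% of all 19528 windows) was found in 24.3% (20.5 to 28.7%) of solitary and 21.3% (20.6 to 22.1%) of other distal peaks outside multi-copy windows. The ETS core CGGAAGT (6.83% of all windows) was found in 17.1% (14.2 to 20.5%) of solitary and 12.8% (12 to 13.6%) of other promoter peaks, a difference of 4.36 points (1.34 to 7.80). Its variant AGGAAGT (16.1% of all) was found in 24.3% (20.5 to 28.7%) and 21.0% (20.2 to 21.8%) of distal peaks. The GC box CCCGCCC (17.4% of all), a site of Sp and Klf factors, was found in 39.4% (35.4 to 43.5%) of solitary and 36.6% (35.5 to 37.8%) of other promoter peaks. The AP-1 site TGAGTCA (4.62% of all) and AGGGGGC from the CTCF motif (7.24% of all) were held by 5.97% and 5.01% of solitary distal peaks and by 6.41% and 4.09% of other distal peaks, with overlapping intervals. Only the ETS core CGGAAGT at promoters and the Tcf/Lef core at both positions had an interval of the difference without 0 among the 14 comparisons of cores at promoters and in distal windows. The ETS cores differ in their first base and cannot lie at 1 place on 1 strand, whereas the GC box and the CTCF part can overlap. None of the 7 cores was found in 467 solitary peaks (40.7%, 37.9 to 43.5%) and in 40.3% (39.6 to 41.0%) of the others.

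**Figure D5:**
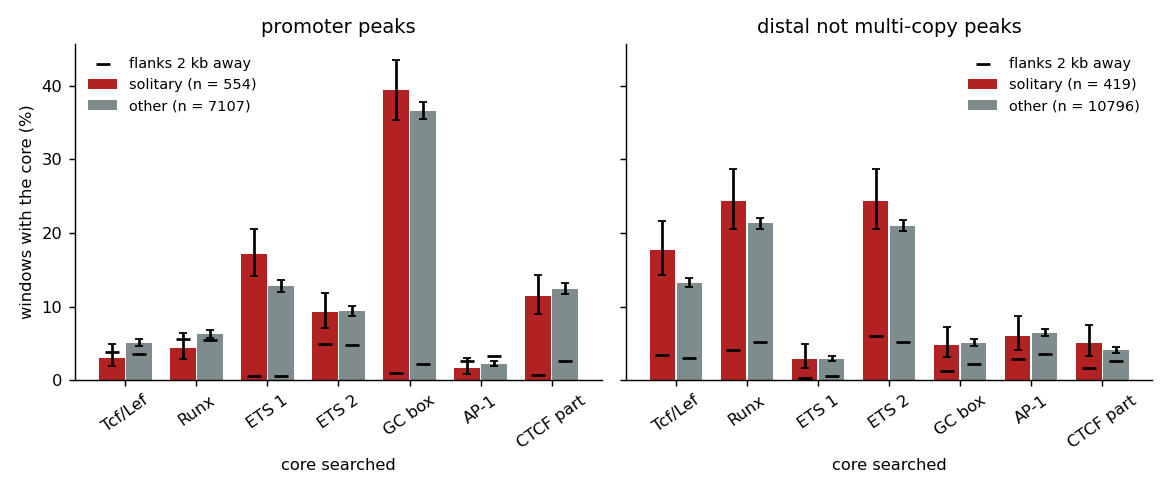
Share of windows in percent, 100 bp to each side of the summit, that hold each core, at promoters (left) and in distal peaks outside multi-copy windows (right), with 95% Wilson intervals and black dashes for windows 2 kb away (ETS 1 is CGGAAGT, ETS 2 is AGGAAGT). Solitary peaks (red) have the Tcf/Lef core in 3.07% of promoter and 17.7% of distal windows, other peaks (grey) in 5.11% and 13.2%.

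The rule keeps members away from loci with several peaks, so counts at gene lists largely repeat it, and nothing is read from them about the lists. Of all autosomal peaks of pileup 25 or more, 5.88% were solitary. Of 50 T cell genes listed, 49 were host or nearest gene of 387 other peaks (2.11%, 1.91 to 2.32%), and 1 solitary peak (0.0871%, 0.0154 to 0.492%) was assigned to them. It was an intergenic one 154 kb upstream of Runx1, a factor needed for T cell development (chr16:92980031-92980642). It had a pileup of 165 (141 to 192) at the control floor, a fold enrichment of 25.9 and its nearest neighbour at 113 kb. For 20 effector genes the counts were 62 other peaks (0.337%) at 16 genes and 0 of 1148 solitary peaks, which allows a share of up to 0.334%. For 15 myeloid genes they were 13 (0.0707%) at 6 genes and 0.

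The 15 B cell genes listed were host or nearest gene of 2 solitary peaks (0.174%, 0.0478 to 0.633%) and 8 other peaks (0.0435%, 0.0221 to 0.0859%), with overlapping intervals. Blk, a tyrosine kinase of B cells, had one in an intron with a pileup of 42 (30.3 to 56.8) and a fold enrichment of 6.70 (chr14:63996239-63996586). Ebf1, the factor that specifies B cells, had one with a pileup of 33 (22.7 to 46.3) and a fold enrichment of 5.30 (chr11:44706434-44706675). Neither window was repeated and both stood at the control floor. Chemosensory receptor genes, which lie in large arrays, were counted by the nearest start site only. Olfr genes had the nearest start at 4 solitary peaks (0.348%, 0.136 to 0.892%) and Vmn1r and Vmn2r genes at 8 (0.697%, 0.354 to 1.37%), against 16 (0.0871%, 0.0536 to 0.141%) and 21 (0.114%, 0.0747 to 0.175%) of the other peaks. Counted in the same way, predicted Gm genes had the nearest start at 142 solitary peaks (12.4%, 10.6 to 14.4%) and at 9.60% (9.18 to 10%) of the others.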

How the data were processed

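The authors aligned reads to mm9 with Bowtie2 (2.2.5) and called peaks with MACS2 (2.1.1.20160309 per the file headers), with WT as the treatment against the Tcf1-deficient control, p under 1e-05 and 1 duplicate kept. The deposited signal (pileup) is the unscaled coverage of WT fragments over the summit. The deposited fold enrichment is a ratio of pileup plus 1 to the local control level plus 1, from which the control level was computed back. The deposited −log10 p and q are Poisson values comparing the 2 libraries. The deposited positions were used as given, and 0 value columns were left unmapped.

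Summits were placed on NCBIM37 (mm9; chromosome lengths match) with GENCODE M1: promoter within 1 kb of any start site, then exon, intron, intergenic. Sequence was read 100 bp to each side of the summit and in flanks 2 kb away. Windows with over 50% repeated 31-base words were called multi-copy, a limit chosen after the data were seen. Sequence collapsed to 1 copy in the assembly is not counted by it. Per the study's methods the reads were paired and longer than these words, so a read from a multi-copy window could still match 1 place. Shares carry Wilson and differences Newcombe 95% intervals, medians order-statistic intervals and pileups exact Poisson intervals. Python 3.11.15, scipy 1.17.1 and pysam 0.24.0 were used, and the spacing, motif and interval code was checked on simulated data.

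The members and gene lists were chosen with earlier results of these data known. Named peaks were the 10 largest by fold enrichment, the 5 farthest from a neighbour, the 5 tallest at promoters and all at listed genes, of which 1 is not reported here. Peaks at high control levels, the tallest multi-copy one in an intron and the promoters of regulatory genes were added after their values were seen. Alternatives varied the distance, the pileup minimum, the neighbours counted, the control level, the promoter width and the start sites.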

Additional observations from a re-analysis of the deposited data

How the results depend on the processing

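No paired analysis was possible because each genotype had 1 library and no test was made. Of 86 recomputed values for 10 results, 46 stayed close (within the interval of the reported value, or for counts within 1.5 times of it), and 40 moved further. Of the 3 results with a sign (both log2 ratios and the promoter difference) 0 changed it, while the intergenic difference, not among the 10, did so without multi-copy windows (3.26 to -5.12 points). The causes were not tested. With a distance of 50 kb there were 2624 solitary peaks, with a median pileup of 41 (log2 ratio to other peaks -0.10), a median length of 454 bp (log2 ratio -0.09) and an intergenic share of 27.2%. With 200 kb there were 454, with 37 fragments (-0.25), 397 bp (-0.27), a promoter share of 43.0%, a promoter difference of 3.81 points (-0.720 to 8.45), an intergenic share of 37.9% and a median distance to a start site of 8909 bp (reported value 2249.5 bp). A pileup minimum of 50 left 376 peaks, 74.5 fragments (-0.07, interval -0.16 to 0.04), 581 bp and a promoter difference of 14.4 points. Counting as neighbours only peaks of pileup 25 or more, or only high-confidence peaks, gave log2 pileup ratios of -0.14 and -0.14. Among high-confidence solitary peaks the median length was 457 bp, the promoter share 52.2%, the promoter difference 13.5 points, the intergenic share 26.5% and the distance to a start site 554 bp. Among peaks at the control floor the last 4 were 51.2%, 12.9 points, 25.7% and 653 bp. Leaving out multi-copy windows, an alternative added after seeing the data, gave 41 fragments (-0.10), 474 bp (-0.03, interval -0.08 to 0.02) and, for the same 4, 56.6%, 17.6 points, 21.9% and 302 bp. A wider promoter of 2.5 kb gave a difference of 4.27 points.

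The Tcf/Lef core share moved outside its interval under no alternative run. With 1 library per genotype, biological spread is unknown, and at the pileup minimum counting error alone can move a peak across the limit.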

Other observations

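Chromosome X, which stands outside the rule, had 94 isolated peaks among 409 of pileup 25 or more (23.0%, 19.2 to 27.3%), against 5.88% (5.56 to 6.22%) on the autosomes. Of the 94, 52 lay at promoters, 29 between genes and 13 in introns, 12 held the Tcf/Lef core and 21 were in multi-copy windows (22.3%, 15.1 to 31.8%). Their median pileup was 37 (34 to 41) and their median length 354 bp (303 to 394). How many X chromosomes the sampled cells carried is not given by the labels.

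A further 192 autosomal peaks were as isolated but had a pileup of 18 to 24, with a median of 22 fragments. Promoters made up 27.1% of them (21.3 to 33.8%), intergenic positions 55.2% (48.1 to 62.1%) and multi-copy windows 47.4% (40.5 to 54.4%). The Tcf/Lef core was found in 10.4% (6.84 to 15.5%). None of the 192 could reach the high-confidence limits, because even at the control floor a pileup of 24 stays under the fold limit.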
